A study of Homo sapiens with 34 samples.

Results

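The genes of the cytosolic ribosome were examined at their start sites in peak lists of 5 histone marks from KELLY neuroblastoma cells. Members were the protein-coding genes of the GENCODE annotation of hg38 on chromosomes 1 to 22 and X whose symbol is RPL or RPS followed by digits, with or without a closing A, X or L form, together with the stalk genes RPLP0, RPLP1 and RPLP2 and the small-subunit gene RPSA. The kinases named RPS6K were left out. This gave 85 of 19970 protein-coding genes, 53 of the large subunit (RPL) and 32 of the small subunit (RPS).

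KELLY is an established human neuroblastoma line in which the oncogene MYCN is amplified. The cells carried an inducible hairpin, switched on by doxycycline, that depletes RUNX1T1, a transcriptional co-repressor, and chromatin was immunoprecipitated after 72 h with DMSO or with doxycycline. The 34 samples were 3 libraries per treatment for each of H3K4me1, H3K4me2, H3K4me3, H3K27ac and H3K27me3, and 4 input libraries, 2 per treatment, which entered only through the peak calls. The comparison asks which histone marks at these genes differ when RUNX1T1 is depleted. Both groups were the same line with the same inducible hairpin, and doxycycline was given to the depleted cells alone, so the agent and the knockdown cannot be told apart. The peak lists hold no RNA, so the depletion was not checked here. The labels do not say that replicates were separate cultures, and p-values therefore measure only the spread between these libraries, which may be technical.

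The cytosolic ribosome translates nuclear-encoded mRNA. Its proteins are made in near-equal amounts, and most of their mRNAs begin with a run of pyrimidines, the 5′ terminal oligopyrimidine tract, through which mTOR signalling controls their translation. MYC proteins, MYCN among them, are known drivers of ribosome production. H3K4me3 and H3K27ac mark active start sites, H3K4me2 and H3K4me1 lie mostly on their flanks and at enhancers, and H3K27me3 marks genes silenced by Polycomb.

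Start-site windows of selected members are shown first, because the members differ in this sequence and the tract is the feature by which the family is best known.
RPLP0 (chr12:120201092-120201151, minus strand): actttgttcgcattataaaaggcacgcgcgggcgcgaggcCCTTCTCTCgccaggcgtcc
RPLP1 (chr15:69452778-69452837, plus strand): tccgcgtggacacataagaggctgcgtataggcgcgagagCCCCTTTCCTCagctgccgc
RPLP2 (chr11:809927-809986, plus strand): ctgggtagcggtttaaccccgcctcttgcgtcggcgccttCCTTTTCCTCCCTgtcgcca
RPL11 (chr1:23691766-23691825, plus strand): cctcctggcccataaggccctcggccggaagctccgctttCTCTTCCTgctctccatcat
RPL13 (chr16:89560642-89560701, plus strand): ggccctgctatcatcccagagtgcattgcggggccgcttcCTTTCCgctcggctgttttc
RPL39 (chrX:119791611-119791670, minus strand): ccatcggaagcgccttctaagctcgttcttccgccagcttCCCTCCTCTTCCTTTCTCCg
RPS18 (chr6:33272035-33272094, plus strand): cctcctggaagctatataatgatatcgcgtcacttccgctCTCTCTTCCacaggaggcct
RPS9 (chr19:54200818-54200877, plus strand): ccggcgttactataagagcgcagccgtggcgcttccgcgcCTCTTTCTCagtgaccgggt
RPL22 (chr1:6199576-6199635, minus strand): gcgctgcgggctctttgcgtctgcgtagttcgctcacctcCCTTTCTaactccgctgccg
RPL22L1 (chr3:170870176-170870235, minus strand): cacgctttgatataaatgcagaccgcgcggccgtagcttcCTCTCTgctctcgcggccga
RPL10 (chrX:154398337-154398396, plus strand): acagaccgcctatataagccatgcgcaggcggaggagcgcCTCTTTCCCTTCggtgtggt
RPL10L (chr14:46651762-46651821, minus strand): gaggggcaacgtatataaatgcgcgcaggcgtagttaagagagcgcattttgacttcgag
RPS27 (chr1:153990722-153990781, plus strand): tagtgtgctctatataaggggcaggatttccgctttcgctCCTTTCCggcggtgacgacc
RPS27L (chr15:63157458-63157517, minus strand): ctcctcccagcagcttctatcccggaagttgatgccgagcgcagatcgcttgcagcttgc
RPS15 (chr19:1438356-1438415, plus strand): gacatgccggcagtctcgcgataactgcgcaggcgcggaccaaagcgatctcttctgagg
RPL32 (chr3:12841546-12841605, minus strand): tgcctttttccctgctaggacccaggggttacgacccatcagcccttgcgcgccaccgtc
Each window, from RefSeq on GRCh38.p14, runs 5′ to 3′ on the strand of the gene from 40 bases before the annotated start to 20 bases from it, and capitals mark a tract of at least 5 pyrimidines that opens with C at the first transcribed base.

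RefSeq windows were matched for 68 members, and for 65 of them the window lay at the canonical start of the annotation used for the peaks. Of these 65, 51 began with C (78.5%, against 10.5% of 14542 protein-coding genes), and 47 opened with a tract (72.3%, against 4.68%). A tract was scored only from the annotated first base, so a start annotated some bases off would count as without one. The RPS15 window, for example, holds a run of pyrimidines some bases beyond its annotated start. The tracts had a median of 8 and a longest of 19 pyrimidines, the latter in RPL39, a small protein of the exit tunnel. Translation factors shared the feature in 9 of 10 matched genes, whereas the genes of the mitochondrial ribosome had it in 7.69%. Members with and without a tract had like H3K4me3 levels in DMSO, where the median percentile of fold enrichment was 66.3 over 47 members with a tract and 66.9 over 17 without one, and the median peak widths were 3019 and 3074 bp. Percentiles here rank a gene among all protein-coding genes that had a peak of that mark in the same library, by the fold enrichment of its strongest peak within 1.0 kb of any annotated start site. Fold enrichment is the ratio of ChIP coverage (pileup) to the local input level as the peak caller gave it.

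Short motifs were searched on both strands of the 300-base promoter entries of the 68 matched members and of 15315 genes in all. The ETS-type motif CCGGAAG was present in 33.8% of members and 14.7% of all entries, and TGTGGT, the core bound by RUNX factors, in 19.1% and 10.6%. The E-box CACGTG, to which MYC and MAX bind, was present in 5.88% and 8.85%. TATAAA was found in 10.3% and 9.42%, GGGCGG in 57.4% and 61.8%, and CCAAT in 32.4% and 36.6%. None of these motifs contains another, and a match is a description of letters, not of binding.

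The libraries differed in ways that bear on the values. Peaks were called at a depth of 71.9 to 81.1 M reads in DMSO and 57.0 to 63.4 M with doxycycline. The input read totals of replicates 1 and 3 were identical within each treatment (81.47 M in DMSO, 63.44 M with doxycycline) and those of replicate 2 were different (74.51 and 57.0 M), so the first and last replicates seem to have been called on a common input. If so, their fold enrichments are not independent. The tests below treat them as independent, so p-values of fold enrichment may understate the spread. The H3K4me3 lists held 23801 to 26592 peaks. In H3K27me3, 3 of 6 libraries had a caller's fragment length of 105 to 112 bp, against 256 to 280 bp in the others. All 8 noradrenergic markers had H3K4me3 and H3K27ac in all 6 libraries and none had H3K27me3. Of 8 markers of other cell types, COL1A1 and GFAP had H3K4me3 in all 6 and GFAP also had H3K27ac.

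Nearly every cytosolic ribosomal protein gene carried both active marks at its start. The lists were called at different thresholds, with a lowest −log10 q of 3.09 in the narrow lists (H3K4me2, H3K4me3) and of 1 in the broad lists, so presence is compared with all genes within a mark and not between marks. H3K4me3 was present in all 6 libraries at 83 of 85 members (97.6%, against 71.9% of all protein-coding genes) and H3K27ac at 84 (98.8%, against 64.2%). Among the small-subunit genes, 32 of 32 had both marks throughout. All 19 members mutated in Diamond-Blackfan anemia, an inherited failure of red cell production, also had both in all 6. H3K4me2 was present throughout at 79 members (92.9%, against 71.8%) and H3K4me1 at 70 (82.4%, against 61.4%). H3K27me3 ran the other way, with 81 members in no library and 1 in all 6 (1.18%, against 20.1%). H3K4me3 with H3K27ac and without H3K27me3 in all 3 libraries was found at 82 members in each treatment (96.5%), against 59.4% of all genes in DMSO and 58.2% with doxycycline. The related lists were as fully marked, and all 75 mitochondrial ribosomal protein genes, 15 translation factors and 18 ribosome biogenesis genes had H3K4me3 and H3K27ac throughout.

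No member had a peak in 3 of 3 libraries of one treatment and 0 of 3 of the other, in any mark. Over all protein-coding genes that pattern occurred at 0.13% for H3K4me3, 0.33% for H3K27ac, 0.03% for H3K4me2, 0.315% for H3K4me1 and 0.19% for H3K27me3, shares too small for 0 of 85 members to be read as a result.

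The members without an active mark were tissue-restricted paralogs. RPL10L (chr14:46651010-46651781, minus strand), a testis paralog of RPL10, had no H3K4me3, H3K27ac or H3K4me2 peak, and H3K4me1 in DMSO replicate 3 alone, a peak of 689 bp with a fold enrichment of 2.08. RPL3L (chr16:1943974-1957606, minus strand), the paralog of RPL3 of heart and skeletal muscle, had no H3K4me3 peak. Its H3K27ac peak in all 6 libraries was the peak of the neighbouring small-subunit gene RPS2 (chr16:1962058-1964841, minus strand). That peak was 7496 to 8575 bp wide and ended 2740 to 3755 bp upstream of the canonical RPL3L start. It therefore belongs to RPL3L only through an alternative start site, and it is counted at both genes. At the canonical start 83 members had H3K27ac in all 6 libraries.

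The few H3K27me3 peaks lay away from canonical starts. RPL39L (chr3:187120948-187180908, minus strand), a testis-enriched paralog of RPL39, was the member with H3K27me3 in all 6 libraries, with fold enrichments of 2.61 to 3.18 and widths of 155 to 16179 bp. The peaks were 26376 to 41928 bp upstream of its canonical start, near alternative starts, while an H3K27ac peak of 1105 to 1406 bp covered the canonical one. RPL26L1 (chr5:172958729-172969771, plus strand) had H3K27me3 in DMSO replicate 1 (319 bp) and doxycycline replicate 3 (436 bp), 1216 to 1229 bp upstream. RPL38 (chr17:74203582-74210655, plus strand) had a peak of 1890 bp in DMSO replicate 1, 875 bp upstream, and RPL7 a peak of 584 bp in doxycycline replicate 1, 1946 bp upstream. No H3K27me3 peak covered the canonical start of any member.

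The peaks of these genes were long rather than exceptionally high. Median H3K4me3 widths were 3135, 3093 and 2810 bp in DMSO and 3257, 3197 and 2637 bp with doxycycline, against 2240, 2253 and 2015 bp and 2219, 2211 and 1896 bp over all genes with a peak. The median member lay at the 80.7th, 79.7th and 79.9th percentile of width in DMSO, and 77 of 83 were above the 50th. Large-subunit genes had medians of 3286, 3318 and 2931 bp in DMSO and small-subunit genes 2976, 2972.5 and 2740.5 bp. Mitochondrial ribosomal protein genes, which make another ribosome from nuclear genes, were ordinary in width, with medians of 2274, 2204 and 2115 bp. Translation factors were as long as the members or longer (3662, 3629 and 3216 bp). H3K27ac showed the same, with 3788, 3441.5 and 3060 bp in DMSO against 2302, 2187.5 and 2012.5 bp over all genes.

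**Figure D1:**
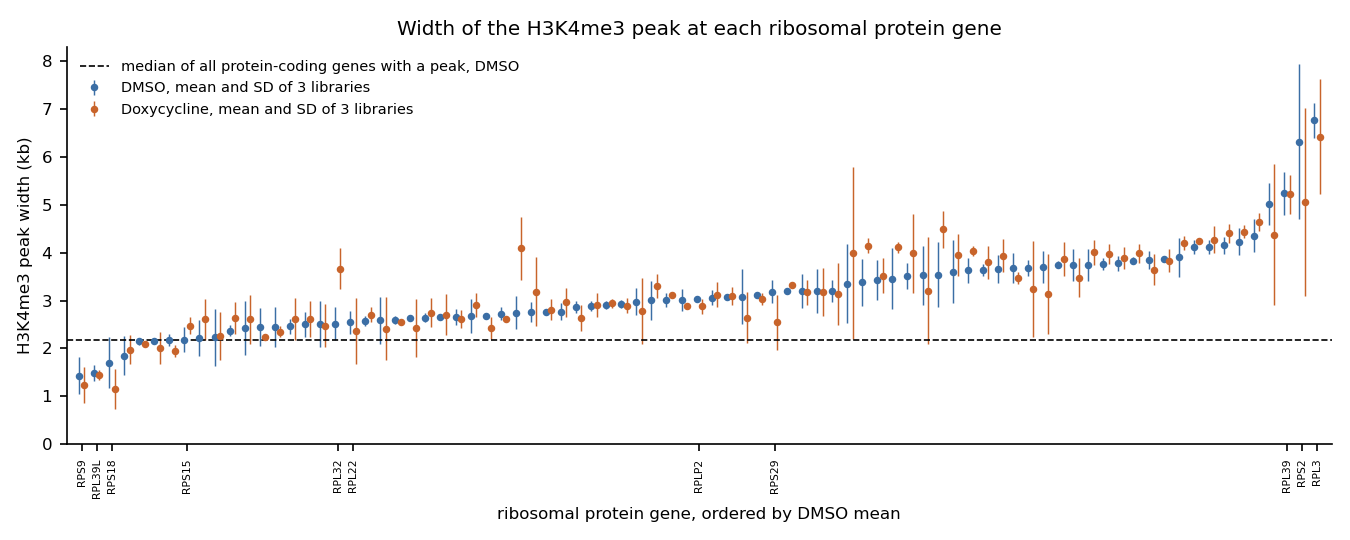
H3K4me3 peak width in kb of each of the 83 members with a peak in all 6 libraries, in order of DMSO width, with points for the mean and bars for the SD of the 3 libraries of a treatment and a dashed line for the DMSO median of all genes with a peak (selected genes named). RPL3 and RPS2 stand at the wide end, RPS9 and RPL39L at the narrow end, and the widths of most members overlap between treatments.

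RPL3, at the peptidyl transferase centre, had the widest H3K4me3 peak by the DMSO mean, 6697, 7171 and 6439 bp in DMSO and 6528, 7564 and 5168 bp with doxycycline. RPS2, at the mRNA entry channel, followed with 7228, 7283 and 4449 bp, wider than RPL3 in DMSO replicates 1 and 2, and had 7310, 4144 and 3716 bp with doxycycline. Each spread over several kilobases in every library, and the groups overlapped in both genes. RPS9, of the small-subunit body, was the narrowest by the DMSO mean with 1659, 1654 and 986 bp, and RPL39L next with 1466, 1654 and 1335 bp, an order that rests on DMSO replicate 3. H3K27ac was narrowest at the same genes, with 1187, 1043 and 780 bp at RPS9 and 1301, 1384 and 1105 bp at RPL39L in DMSO. It was widest at RPL18, with 22831, 9500 and 9716 bp in DMSO, and at RPS15, with 20622, 19725 and 2685 bp. DMSO replicate 3 of RPS15 was far below the rest. The H3K27ac widths of RPL18 and RPS15 differed more between libraries of a treatment than between treatments. RPS9 had a low H3K4me3 pileup, given below, and its part in the narrow peaks was not tested.

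The added length lay downstream of the start. The H3K4me3 peak reached a median of 1005, 1044 and 941 bp upstream of the canonical start in DMSO, against 807, 834 and 726 bp over all genes, but 2164, 2133 and 1875 bp downstream, against 1324, 1320 and 1224 bp. With doxycycline the downstream reach was 2332, 2236 and 2012 bp. Summits were downstream of the start in 88.0% to 92.8% of members by library, against 82.4% to 82.8% of all genes. Members are short genes, with a median length of 5548 bp against 27476 bp, and the H3K4me3 peak covered a median of 39.0%, 39.3% and 33.5% of the gene in DMSO, against 3.06% to 3.57% by library over all genes. The mitochondrial ribosomal protein genes, with a median length of 11482 bp, had a downstream reach of 1243, 1222 and 1138 bp.

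RPLP2, a stalk protein, was an exception in direction, reaching 1704, 1607 and 1579 bp upstream and 1400, 1384 and 1415 bp downstream in DMSO. RPL5, which carries the 5S rRNA with RPL11, reached only 534, 341 and 87 bp upstream.

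**Figure D2:**
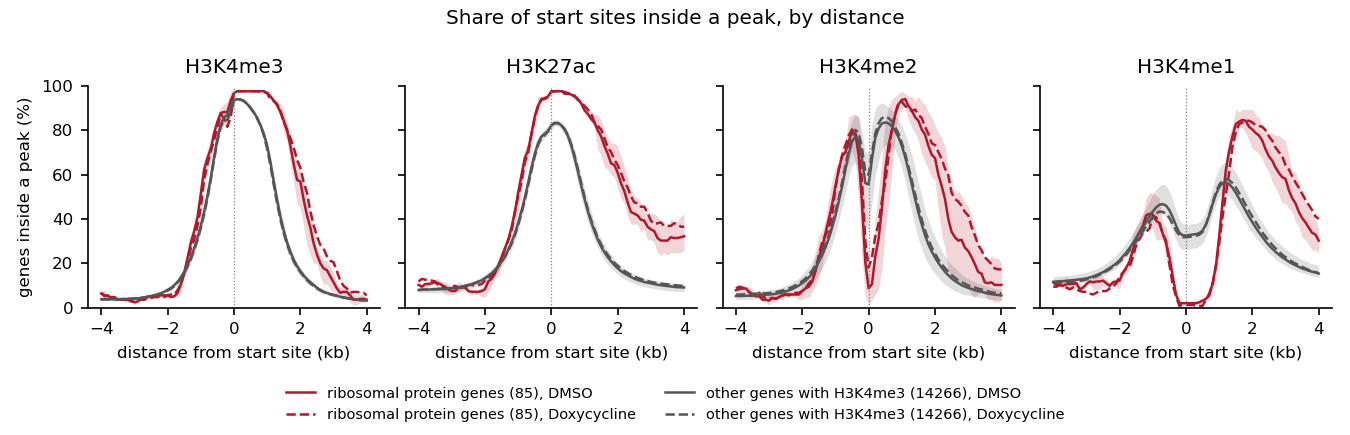
Percentage of genes whose position lies inside a peak, in steps of 100 bp over 4.0 kb either side of the canonical start, as the mean over the 3 libraries of each treatment (DMSO solid, with shading from lowest to highest library, doxycycline dashed), for members and for the other genes with H3K4me3 in all 6 libraries. H3K4me3 and H3K27ac of the members extend further downstream, and H3K4me2 and H3K4me1 are low at the start and rise beyond it.

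At the start itself, H3K4me2 and H3K4me1 peaks were less frequent at the canonical start of members than of other genes with H3K4me3, as a description with no test. In DMSO, the canonical start lay inside an H3K4me3 peak at 96.9% of 85 members and 93.7% of 14266 other genes with H3K4me3, and inside H3K27ac at 97.6% and 82.2%. For H3K4me2 the values were 8.63% and 55.5%, with single libraries between 1.18% and 16.5% for the members, and for H3K4me1 1.96% and 32.5%. Both marks were more frequent downstream. At 500 bp downstream H3K4me2 covered 62.4% of members and at 1 kb 93.7%. H3K4me1 covered 32.2% at 1 kb. The lists of the 2 marks differ in threshold and calling mode, so no order between the marks is read from these shares. At 2 kb H3K4me1 covered 80.4% of members against 38.5% of the other genes, and H3K4me3 56.9% against 16.5%. Upstream the members were closer to the others, with H3K4me1 over 42.0% and 43.4% at 1 kb. With doxycycline the start lay in H3K4me2 at 18% of members, with single libraries from 3.53% to 44.7%, so that the libraries of one treatment differed by more than the treatments. H3K4me1 within 1 kb of the canonical start in all 6 libraries was found at 33 members (38.8%, against 50.04% of all genes and 74.7% of mitochondrial ribosomal protein genes), although 70 members had it when all annotated starts were counted. Peaks that covered any annotated start in all 6 libraries ran the other way, with H3K4me2 at 44 members (51.8%, against 44.3% of all genes) and H3K4me1 at 30 (35.3%, against 29.3%). Members have more annotated starts, a median of 8 against 5.

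H3K4me1 was missing from at least 1 library at 15 members and H3K4me2 at 6. RPS9 had no H3K4me1 in any library, and RPS18 had it in 1 library of each treatment. H3K4me2 was found in 1 DMSO and 2 doxycycline libraries at both. These 2 genes also had the lowest H3K4me3 values, given below. The part of the reads kept at their loci was not tested. RPL41, the smallest protein of the ribosome, had H3K4me1 in 1 DMSO library, and RPL31 in 1 library of each treatment.

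In fold enrichment the members ranked above the middle but not at the top. The median H3K4me3 percentile was 77.4, 69.1 and 78.9 in DMSO and 62.2, 62.5 and 63.9 with doxycycline, so the treatments did not overlap. By pileup, which is not divided by the input level, the medians were 60.8, 63.3 and 64.4 in DMSO and 58.4, 59.9 and 63.6 with doxycycline. These values overlap. The peaks were still called against the input and chosen by fold enrichment. The implied local input level, taken as pileup plus 1 divided by fold enrichment, less 1, had member medians at the 45.7th, 47.6th and 45.7th percentile in DMSO and the 51.9th, 51.3rd and 50.1st with doxycycline. The part of the input in the shift of fold enrichment was not tested. Small-subunit genes had medians of 79.1, 70.0 and 80.4 in DMSO and 64.1, 64.0 and 58.1 with doxycycline, large-subunit genes 73.6, 69.0 and 71.1 and 62.2, 57.0 and 65.7. The mitochondrial ribosomal protein genes had 60.8, 61.6 and 62.2 and then 53.8, 57.2 and 55.7.

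**Figure D3:**
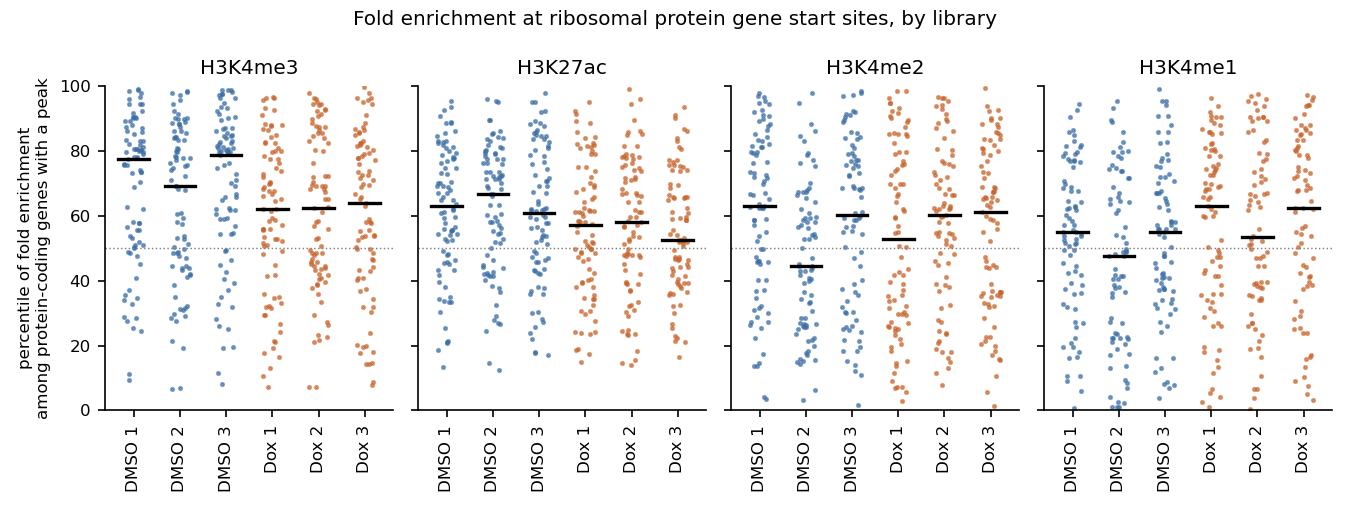
Percentile of fold enrichment in each library for the members with a peak, by mark and treatment, each point a gene and each bar the median of the library. H3K4me3 medians are 69.1 to 78.9 in DMSO and 62.2 to 63.9 with doxycycline, and in every library single members spread over most of the range.

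H3K27ac gave medians of 63.0, 66.7 and 60.9 in DMSO and 57.2, 58.2 and 52.5 with doxycycline, again without overlap. Its pileup percentiles were 54.8, 61.3 and 54.6 and then 53.3, 53.3 and 51.7. H3K4me2 gave 63.0, 44.4 and 60.4 and then 52.7, 60.2 and 61.1, and H3K4me1 55.1, 47.5 and 55.0 and then 62.9, 53.4 and 62.4, with overlap in both. Medians over a list carry no test here.

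Single members covered most of the range in H3K4me3. The mean DMSO percentile ran from 8.77 to 97.4, with quartiles of 57.9 and 79.3, and 73 of 83 members were above 50. The SD of the members' means was 17.6, and the SD of single DMSO libraries within a member was 18.9, so that the ends of the list were apart while neighbours in its middle were not. Width was steadier, with SDs of 17.5 between and 6.88 within members, and so was H3K27ac fold enrichment, with 18.9 and 9.26.

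The members at the ends of the list were chosen by their DMSO values, which are a description. RPL22 (chr1:6185020-6209389, minus strand), an RNA-binding protein of the large subunit, had H3K4me3 percentiles of 96.7, 97.8 and 97.5, and 69.8, 87.5 and 62.9 with doxycycline. RPL13 (chr16:89560677-89564542, plus strand) had 89.2, 94.5 and 98.8 and then 85, 68.4 and 50.4. All doxycycline libraries were lower than all DMSO libraries at both genes, but neither change passed the test across genes (limma, log2 change −0.43 and adjusted p = 0.224 for RPL22, −0.42 and 0.280 for RPL13). Choosing the highest genes in DMSO favours lower ranks in the other group, so the lower ranks are not read as a treatment effect. The same holds for RPS15, also among the highest in H3K4me3, and for RPL13 in H3K27ac. In H3K27ac RPL13 was among the highest with 90.8, 95.2 and 94.9 in DMSO, and so was RPS29 with 92.7, 96.1 and 91.9. RPL38, known in mice for a role in translating Hox mRNAs, was among the lowest in H3K27ac, with 13.5, 40.2 and 17.7.

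RPS18 (chr6:33272075-33276511, plus strand), of the small-subunit head, and RPS9 (chr19:54200809-54249003, plus strand) were the lowest in both marks. RPS18 had H3K4me3 percentiles of 11.3, 6.71 and 8.28 in DMSO and 10.6, 7.24 and 8.81 with doxycycline. RPS9 had 9.43, 7.03 and 11.4 and then 7.29, 7.37 and 7.78. Their pileup was as low, with mean DMSO percentiles of 5.34 and 5.61. Both starts open with a tract of 9 pyrimidines, as printed above. They were the only members whose H3K4me3 peak stood within 0.1% of the lowest input level of its library in all 6 libraries, a state of 505 of 14349 genes (3.52%). Within 250 kb, 15 of 16 neighbours of RPS18 with H3K4me3 and 6 of 10 of RPS9 were in the same state, with median fold-enrichment percentiles of 12.2 and 9.52. RPS18 lies in the region of the major histocompatibility complex and RPS9 in that of the leukocyte receptor complex, both known for alternative haplotype sequences. Whether the reads kept at these loci set the low values was not tested.

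The stalk proteins, which recruit translation factors, and the 5S rRNA partners varied between libraries. RPLP0 had H3K4me3 percentiles of 62.9, 86.0 and 59.2 in DMSO and 77.5, 96.0 and 53.7 with doxycycline. RPLP1 had 45.1, 77.8 and 37.0 and then 73.0, 26.2 and 55.2, and RPLP2 80.7, 68.1 and 92.3 and then 96.3, 67.4 and 79.5. The groups overlapped in all 3 genes. RPL5 was high throughout, with 73.6, 88.4 and 98.8 and then 88.3, 87.8 and 91.1, whereas RPL11 had 79.8, 28.6 and 78.9 and then 86.8, 48.1 and 69.4. The 2 proteins bind the 5S rRNA together and restrain MDM2, and their ranks overlapped within the spread of RPL11.

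The paralogs differed from their parents in presence, height or width, in both directions. RPL10 had an H3K4me3 percentile of 49.5 ± 25.3 (SD, n = 3) in DMSO where RPL10L had no peak, and RPL3 66.9 ± 24.5 where RPL3L had none. RPL22 stood at 97.4 ± 0.575 and RPL22L1 at 42.5 ± 20.2. RPL39 stood at 69.5 ± 22.4 and RPL39L at 25.6 ± 6.27, with widths of 5239 ± 446 and 1485 ± 160 bp. RPL7 stood at 93.4 ± 4.93 and RPL7L1 at 55.9 ± 24.5. The summit of the RPL7 peak lay 1118 to 1187 bp upstream of the canonical start in all 6 libraries, towards the head-to-head gene RDH10, which starts 969 bp away, so the height is not that of the RPL7 start alone. RPS27 stood at 79.1 ± 8.71 and RPS27L, a p53 target, at 44.8 ± 20.2. The order was turned in 2 pairs, with RPL36A at 37.1 ± 9.74 and RPL36AL at 58.2 ± 0.667, and RPL26 at 62.3 ± 14.9 and RPL26L1 at 89.8 ± 12.3. The summit of RPL36AL was likewise 727 to 788 bp upstream in 5 of 6 libraries, towards MGAT2. That of RPL26 was 604 to 682 bp upstream in all 6 libraries. Neither of the 2 turned pairs therefore compares heights at the starts alone. RPL22L1 was wider than RPL22 (3850 ± 195 against 2551 ± 241 bp). With 3 libraries of a treatment no exact test of a pair can pass 0.05, and none was made.

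The 5 members on the long arm of chromosome 17, often gained in neuroblastoma, were RPL19, RPL23, RPL23A, RPL27 and RPL38. Their mean DMSO H3K4me3 percentiles were 51.5 to 71.9 with a median of 61.3, their log2 changes were −0.48 to 0.13, and none passed the test.

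Changes between treatments were tested by limma on log2 values brought to a common distribution over the 6 libraries of a mark, with Benjamini-Hochberg adjustment over all genes with a peak in all 6, and a call at adjusted p under 0.05. In H3K4me3 fold enrichment 0 of 83 members were called, against a background of 0 (0%) of 14349 genes. At an unadjusted p under 0.05, 9 members were lower and 3 higher with doxycycline (1013 lower and 1072 higher of all genes). The median log2 change was −0.05 over members, with 49 below 0 and 34 above, and 0.00 over all genes, with 7170 of 14349 below 0. Among mitochondrial ribosomal protein genes and translation factors it was −0.09 in each. In percentile, 12 of 83 members (14.5%) had all doxycycline libraries below all DMSO libraries, against 8.77% of all genes, and 3 (3.61%) the reverse, against 9.24%. Among the 12 were RPL13, RPL17, RPL22, RPL23, RPL26L1, RPL29, RPL37, RPS15, RPS16, RPS19 and RPS20, and among the 3 were RPL41 and RPS2. These genes were chosen by the values themselves.

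RPS15 (chr19:1438358-1440495, plus strand), a small-subunit head protein whose annotated start has no tract, had the smallest p among members that were lower. Its H3K4me3 percentile was 98.0, 87.3 and 97.2 in DMSO and 21.4, 70.3 and 17.9 with doxycycline. The fold enrichments were 55.1, 53.3 and 35.3 and then 25.8, 43.1 and 14.2 (limma, log2 change −0.93, SE 0.23, adjusted p = 0.0956). The groups of percentiles did not overlap, and doxycycline replicates 1 and 3, which seem to have a common input, were the lowest. Its pileup percentile stayed between 86.6 and 93.2 in all 6 libraries, with a log2 change of −0.04 (limma, adjusted p = 0.855). The implied local input level was 9.87, 10.6 and 11.4 in DMSO and 18, 10 and 20.3 with doxycycline, high in the same 2 libraries. Without doxycycline replicate 2 the change was −1.19 and was called (limma, adjusted p = 0.0340), with 240 genes called in all.

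RPS20 (chr8:56067254-56074510, minus strand), also of the small-subunit head, was lower in the same direction, with H3K4me3 percentiles of 98.8, 80.1 and 96.3 and then 58.8, 29.5 and 53.5 (limma, log2 change −0.66, SE 0.20, adjusted p = 0.145). RPS2 had 77.9, 47.1 and 74.6 and then 92.5, 92.3 and 96.3 (limma, log2 change 0.41, SE 0.17, adjusted p = 0.293). RPS21 had 24.4, 72.4 and 54.5 and then 51.0, 92.7 and 99.6, which overlap (limma, log2 change 0.53, SE 0.24, adjusted p = 0.322). By pileup neither changed beyond its SE, with log2 changes of −0.0035 (SE 0.046) at RPS2 and −0.0027 (SE 0.037) at RPS21. The implied input level changed by −0.45 and −0.60. None of the 3 passed the test. The RPS2 summit lay 198, −453 and 213 bp from the canonical start in DMSO, with negative values upstream. With doxycycline it lay at −457, −469 and −449 bp. The RPS21 summit lay at −401, −440 and −496 bp and then −446, −436 and 543 bp. The heights of these 2 genes were therefore not read at one position in all libraries.

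**Figure D4:**
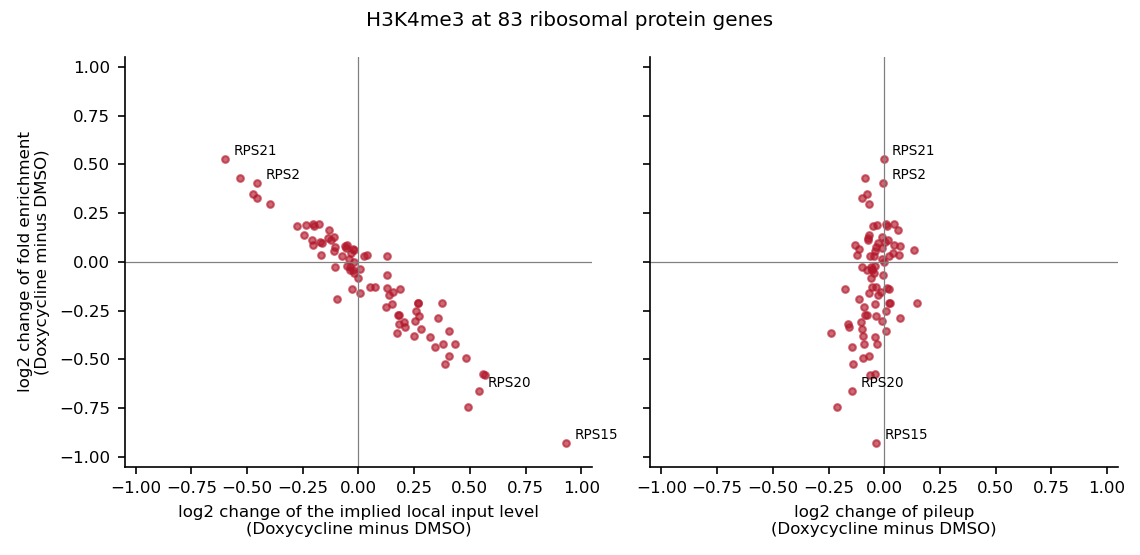
Change in H3K4me3 fold enrichment of each member (log2, doxycycline over DMSO) against the change of its implied local input level and of its pileup, over the 83 members with a peak in all 6 libraries. The changes of fold enrichment follow those of the input level with the opposite sign, and the changes of pileup are small.

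Across the 83 members, changes of H3K4me3 fold enrichment and of the implied input level had a correlation of −0.96, as a description over genes (−0.87 over all genes). The values share their libraries and inputs and are linked by arithmetic, since the input level was computed from fold enrichment. The SD of the log2 change was 0.27 for fold enrichment, 0.28 for the input level and 0.07 for pileup. The signs were opposite in 70 of 83 members.

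In H3K27ac fold enrichment 1 of 84 members was called, RPS20, against 1.6% of all genes (91 higher and 114 lower of 12827), a share near the background. At an unadjusted p under 0.05, 7 members were lower and 0 higher, against 1108 lower and 1108 higher of all genes, so the lower count is near the background. The median log2 change was −0.08, with 56 members below 0, against 6418 of 12827 genes. RPL3L and RPS2 have the same peak and are both counted. Among mitochondrial ribosomal protein genes the median was 0.06 with 1 called, higher. In percentile 12 of 84 members (14.3%) had all doxycycline libraries lower, against 11.7%, and 1 (1.19%, RPL31) had them higher, against 9.86%.

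RPS20 had H3K27ac percentiles of 82.5, 78.5 and 83.5 in DMSO and 34.6, 59.5 and 41.6 with doxycycline, with no overlap. Its fold enrichments were 9.99, 8.53 and 6.58 and then 7.65, 8.60 and 5.46 (limma, log2 change −0.54, SE 0.13, adjusted p = 0.0498). The fold enrichments as deposited overlap, and the change is that of the values after quantile normalisation. With the replicate number as a block the adjusted p was 0.0560. Without a library, the limma adjusted p was 0.188 (DMSO replicate 1), 0.0570 (DMSO replicate 2), 0.168 (DMSO replicate 3), 0.200 (doxycycline replicate 1), 0.0320 (doxycycline replicate 2) and 0.137 (doxycycline replicate 3), so 5 of the 6 omissions ended the call. Without DMSO replicate 2 another member was called, RPL17 (limma, log2 change −0.53, adjusted p = 0.0457). The pileup was 83.3, 82.6 and 57.4 and then 82.0, 72.5 and 57.3 (limma, log2 change −0.08, adjusted p = 0.771). The implied input level was 7.44, 8.80 and 7.87 and then 9.84, 7.55 and 9.68 (limma, log2 change 0.45, adjusted p = 0.0936).

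RPL13 had H3K27ac percentiles of 90.8, 95.2 and 94.9 and then 69.4, 70.4 and 75.3, which do not overlap (limma, log2 change −0.44, SE 0.11, adjusted p = 0.0559), and its pileup changed by −0.30. RPL31 had 21.0, 29.0 and 27.1 and then 42.4, 30.4 and 36.1 (limma, log2 change 0.25, adjusted p = 0.353). Its implied input level was itself called, lower with doxycycline (limma, log2 change −0.23, adjusted p = 0.0470), and its pileup changed by 0.11. RPS26, mutated in Diamond-Blackfan anemia, had 68.8, 73.4 and 62.0 and then 89.1, 66.2 and 81.0 (limma, log2 change 0.18, adjusted p = 0.479). The groups overlapped at RPS26 and not at RPL31.

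In H3K4me3 width 1 of 83 members was called, RPL32, against 0.293% of all genes (32 wider and 10 narrower of 14349). RPL32 (chr3:12834485-12841582, minus strand) is a large-subunit protein whose annotated start has no tract. It had peaks of 2789, 2632 and 2142 bp in DMSO and 3815, 3999 and 3177 bp with doxycycline, with no overlap (limma, log2 change 0.57, SE 0.07, adjusted p = 0.0483). The added width was downstream, where the peak reached 2177, 2366 and 1924 bp and then 3616, 3737 and 3050 bp from the start. With the replicate number as a block the limma adjusted p was 0.157. The adjusted p without a library was 0.0918, 0.123 and 0.0683 for DMSO replicates 1, 2 and 3 and 0.195, 0.127 and 0.0767 for doxycycline replicates 1, 2 and 3, so each of the 6 omissions ended the call. Its H3K4me3 pileup changed by −0.01 on the log2 scale. RPS29 (chr14:49570984-49599164, minus strand) had the smallest p among narrower members, with 3319, 3340 and 2910 bp and then 2968, 2783 and 1879 bp (limma, log2 change −0.30, adjusted p = 0.586).

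Over all members the median log2 change of H3K4me3 width was 0.06, with 55 of 83 above 0, against 0.01 over all genes. At an unadjusted p under 0.05, 10 members were wider and 1 narrower, against 707 and 431 of all genes. Of the large-subunit genes, 37 of 51 were above 0, and of all genes 7503 of 14349. In H3K27ac width 0 members were called, against 0.14% of all genes. RPLP2 had 3804, 2543 and 2362 bp and then 4287, 7248 and 6255 bp (limma, log2 change 1.02, SE 0.29, adjusted p = 0.415), and RPL9 3610, 3728 and 3797 bp and then 3009, 3235 and 2793 bp (limma, log2 change −0.33, adjusted p = 0.582). Neither gene's groups overlapped.

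In H3K4me2, 0 of 79 members were called in fold enrichment, against 0%, and 0 in width, against 0%. RPL29, a heparin-binding protein of the large subunit, had the smallest p among higher members, with percentiles of 76.4, 52.9 and 38.9 and then 96.4, 96.8 and 99.4 (limma, log2 change 0.67, SE 0.18, adjusted p = 0.184). Lower were RPS3, of the mRNA entry site and also a DNA repair factor, with 91.0, 66.3 and 77.3 and then 25, 50.8 and 10.5 (limma, log2 change −0.69, SE 0.23, adjusted p = 0.279), and RPL22L1, with 83.1, 59.5 and 72.3 and then 29.7, 23.5 and 15.7 (limma, log2 change −0.63, adjusted p = 0.309). At RPS3 the log2 change of pileup was of opposite sign but within its SE (0.0725, SE 0.12), and its implied input level changed by 0.83. In percentile 11 of 79 members (13.9%) were higher in all doxycycline libraries, against 7.98% of all genes, and 7 (8.86%) lower, against 6.6%. RPL29 was among the former, and RPS3 and RPL22L1 among the latter. In width RPS2 had 1323, 1142 and 754 bp and then 6458, 2602 and 5625 bp (limma, log2 change 1.99, SE 0.33, adjusted p = 0.271), and RPL37A 2799, 1544 and 1415 bp and then 976, 1588 and 774 bp (limma, log2 change −0.92, adjusted p = 0.999). Over members the median log2 change of width was 0.21, with 53 of 79 above 0, against 7130 of 14338 genes.

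In H3K4me1, 0 of 70 members were called in fold enrichment, against 0.00815% of all genes, and 0 in width, against 0.0326%. Percentiles of 7 members (10%) were higher in all doxycycline libraries, against 7.39%, and those of 3 (4.29%) lower, against 7.43%. The 7 were RPL13, RPL14, RPL23A, RPL35A, RPL8, RPS19 and RPS21. RPL35A, mutated in Diamond-Blackfan anemia, had 57.2, 40.4 and 34.3 and then 80.8, 85.7 and 93.9 (limma, log2 change 0.38, SE 0.11, adjusted p = 0.274). Its width was 2707, 618 and 481 bp and then 3559, 3254 and 4096 bp (limma, log2 change 1.90, SE 0.56, adjusted p = 0.475). RPS21 had percentiles of 55.1, 20.5 and 48.5 and then 88.7, 95.3 and 71.5 (limma, log2 change 0.40, SE 0.12, adjusted p = 0.277). Neither passed the test, although the groups were apart in both.

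Lower in H3K4me1 were RPL36, with 83, 49.1 and 63.7 and then 18.5, 39.7 and 17.1 (limma, log2 change −0.30, adjusted p = 0.399), and RPS6, the substrate of S6 kinase downstream of mTOR, with 79.4, 41.5 and 82.7 and then 33.4, 39.6 and 41.4 (limma, log2 change −0.23, adjusted p = 0.558). At RPS6 the log2 change of pileup was of opposite sign but within its SE (0.0408, SE 0.11). In a 2.5 kb window the log2 change at RPL36 was of opposite sign (0.0476). RPL6 had widths of 1973, 1350 and 2758 bp and then 771, 1761 and 500 bp (limma, log2 change −1.24, adjusted p = 0.688), which overlap. The median log2 change of H3K4me1 fold enrichment was 0.08 over members, with 49 of 70 above 0, against 6080 of 12270 genes. By pileup it was 0.12, with 61 of 70 above 0, against 6275 of 12270 genes. Mitochondrial ribosomal protein genes leaned the same way by pileup, with 45 of 61 above 0.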

How the data were processed

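Peak lists of 5 histone marks from KELLY cells (30 lists, 3 libraries per mark and treatment) were analysed, with groups and replicate numbers from the labels. The authors aligned reads to hg38 and called peaks for each library on its own. Per the file headers this was MACS2 2.1.1.20160309 against an input, in broad mode for H3K4me1, H3K27ac and H3K27me3 and in narrow mode, on a p-value in place of the q-value that the methods state, for H3K4me2 and H3K4me3, with reads taken as single-ended. The submitters' processing notes name Bowtie2, SAMtools, MACS2 and deepTools. The deposited pileup is fragment coverage (signal), at the summit or as a mean over the peak. Fold enrichment, as deposited, is the ratio between that coverage and the input level nearby. Significance was deposited as −log10 of the p-value and of the q-value, and the latter served only to make stricter lists. Because the caller matches the sequencing amounts of ChIP and input, values depend on depth (57.0 to 81.1 M reads) and on the input chosen. Reads were not counted per region here, so counting intervals cannot be given.

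Each protein-coding gene of GENCODE release 44 (hg38) was given its peak of highest fold enrichment within 1.0 kb of any annotated start. Levels were ranked within a library. Log2 fold enrichment and log2 width were quantile normalised over the 6 libraries of a mark and tested in limma 3.58.1 (R 4.3.3), with a trended prior and Benjamini-Hochberg adjustment over all genes with a peak in all 6. No pseudocount was needed. The script was tested on simulated data. Other steps used Python 3.11.15, pandas 2.3.3 and NumPy 2.4.6. RefSeq windows were matched by symbol.

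The members, lists and tests were chosen with earlier results of these data known. Named were members lacking H3K4me3 or H3K27ac or having H3K27me3, the extremes in DMSO of height and width, the smallest p in each direction, paralogs with parents, the stalk genes, RPL5, RPL11 and members on 17q. Some members that this rule names are not reported here. Other members were named after their values were seen. Same-numbered libraries deviated from their group means together in every pair (lowest correlation over genes 0.158 for H3K4me3 fold enrichment, 0.212 for H3K4me3 width, 0.209 for H3K27ac and 0.171 for H3K4me1 fold enrichment), so the numbers seem to pair there. In the other 4 fits the lowest was −0.0455 to 0.0889. The main tests left the replicate number out, and a block for it was an alternative. With the block neither member call remained (limma, adjusted p = 0.0560 for RPS20 in H3K27ac fold enrichment and 0.157 for RPL32 in H3K4me3 width).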

Additional observations from a re-analysis of the deposited data

How the results depend on the processing

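No member was called in H3K27ac fold enrichment under median centring, the percentile scale, the replicate block, peaks in at least 2 of 3 libraries, a 2.5 kb window, the canonical start, peaks that cover a start, a q of 0.001, a −log10 q of 10, or pileup (0 in each, against 1), and leaving out a library gave 0 to 1 (RPS20 without doxycycline replicate 2, RPL17 without DMSO replicate 2). In H3K4me3 width the count was 0 on the percentile scale, with the replicate block, in at least 2 of 3 libraries, at the canonical start and without any library, and 2 in a 2.5 kb window, RPL32 and RPL4 (log2 change 1.57). In H3K4me3 fold enrichment leaving out a library gave 0 to 1 members. The replicate block changed no other call of a member. Presence in all 6 libraries fell to 44 members for H3K4me2 peaks that cover a start. For H3K4me1 it was 33 at the canonical start, 30 for covering peaks, 41 at a q of 0.001 and 0 at a −log10 q of 10, where no change could be fitted for the members. For H3K27me3 it was 2 at 2.5 kb and 0 at the canonical start, for covering peaks and at either stricter q. Under pileup the log2 change had the opposite sign but lay within its SE for RPS2 (−0.0035) and RPS21 (−0.0027) in H3K4me3. The same held for RPS3 in H3K4me2 (0.0725) and RPS6 in H3K4me1 (0.0408). RPL36 turned to 0.0476 in H3K4me1 at 2.5 kb. Causes were not tested. Of the other values for named members, 327 kept direction and side of the threshold, 25 lost a call and 1 gained it.

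Over all genes, called counts without a library and under other settings were 0 to 240 and 0 to 192 for H3K4me3 fold enrichment, 12 to 289 and 40 to 318 for H3K27ac, 0 to 3 and 0 to 7 for H3K4me1, 23 to 63 and 9 to 49 for H3K4me3 width, 0 to 45 and 0 to 33 for H3K27ac width, and 0 to 1 and 0 to 15 for H3K4me1 width. Among medians of member percentiles, 128 moved by less than the spread between replicates and 20 by more, in alternatives partly added after seeing the data. Depth was lower with doxycycline, and weak peaks are the most exposed to that.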

Other observations

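Ribosomal protein pseudogenes, most of them processed copies of the mRNA without a promoter, carried few marks. Of 1579 in the annotation, H3K4me3 was present in all 6 libraries within 1.0 kb of the start at 34 (2.15%), H3K27ac at 36 (2.28%) and H3K4me1 at 68 (4.31%), and H3K27me3 at 163 (10.3%). Reads shared with a parent gene cannot be told apart from reads of the copy in these lists. The paper states that only reads of a minimum mapping quality were kept. The part of that filter in these low shares was not tested.

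Members often host small nucleolar RNAs, which guide the modification of ribosomal RNA, in their introns. This was so for 28 of 85 (32.9%, against 1.28% of all protein-coding genes and 1.33% of mitochondrial ribosomal protein genes), and as often for ribosome biogenesis genes (6 of 18, 33.3%) and for 3 of 15 translation factors (20%). A head-to-head neighbour was found for 14 members (16.5%, against 9.49% of all and 32.0% of mitochondrial ribosomal protein genes). Of the 6 paralogs with both marks, 5 had a higher mean DMSO percentile in H3K27ac than in H3K4me3. The percentiles were 68.2 and 25.6 at RPL39L, 66.6 and 42.5 at RPL22L1, 80.5 and 58.2 at RPL36AL, 84.0 and 55.9 at RPL7L1, and 80.1 and 44.8 at RPS27L. RPL26L1 had 32.2 and 89.8. These differences were not tested. The same count was not made over all members or all genes, and each mark is ranked among its own genes. The count is therefore not read as a trait of the paralogs.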
